A study of Apis mellifera with 2 samples.

Results

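Many honey bee genes carry several annotated coding sequences, and 107 locus-number genes changed which of them held most of the counts between hemocytes of the newly emerged adult bee and hemocytes of the last-instar larva. Hemocytes are the blood cells of insects, and the animals were Apis mellifera carnica. For the adult stage, sealed brood was held at 34 °C and the bees that hatched were picked at 24 h intervals, so none was older than 1 day. For the larval stage, fifth-instar workers aged 8 days were bled. RNA of each stage came from the cells in 320 µL of hemolymph, and the sources used here give no number of pooled insects. No treatment or mutation is named for either stage. There was 1 library per stage, so no difference below has a replicate check, a standard error or a p-value, and each value compares these 2 libraries.

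The genes were chosen by the measured values themselves. The authors' estimated counts per coding sequence, a coding sequence being the protein-coding part of a transcript without its untranslated ends, were grouped into 9935 genes. Of these, 9537 carry a locus number only, and 4490 of those have at least 2 coding sequences. Genes needed at least 500 counts in each library, which left 2226, and a total under 4-fold apart between the libraries, which left 2163. A member had 1 coding sequence with 50% or more of the gene's counts in the adult library and a different one with 50% or more in the larval library. This held for 107 genes, 4.95% of the 2163. The first of these sequences is called the adult main sequence and the second the larval main sequence. The share shift is the share of the adult main sequence in the adult library minus its share in the larval library, in percentage points. Since the rule used the counts of both libraries, the shares, shifts and levels are descriptions and are not tested.

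Several coding sequences of 1 gene arise when transcripts start at different promoters, when exons are joined in different ways, or when transcription ends early. The proteins made from them can differ in a short stretch, in a whole domain or in an end that directs the protein to a place in the cell. A change of main sequence can therefore alter the product of a gene whose total level stays the same. In insects, alternative splicing is known for the genes that set sex and for the immunoglobulin receptor Dscam of hemocytes and neurons. The gene table used here pairs the 107 members with locus numbers only, without product names or synonyms, so they are described by locus number, linkage group and coding length. The chromosomes of the bee are called linkage groups, and those given come from the RefSeq table of assembly Amel_HAv3.1. No sequences of the members were used here, so what distinguishes 2 coding sequences of a gene is known only by length.

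Most of the other genes kept their main sequence. In 1925 of the 2163 genes the same coding sequence held the most counts in both libraries, and in 238 genes it differed. Of those 238, 131 had a leading sequence under 50% in at least 1 library and are not members. The members held 1.65% of all adult and 1.10% of all larval counts, and their totals ran from 505 to 20335 counts in the adult library and from 503 to 14949 counts in the larval library. The median level of members was 95.4 CPM (adult) and 81.6 CPM (larva), beside 91.5 CPM (adult) and 88.7 CPM (larva) over the 2163 genes. CPM are relative to a TMM-scaled library size and are not corrected for length.

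**Figure D1:**
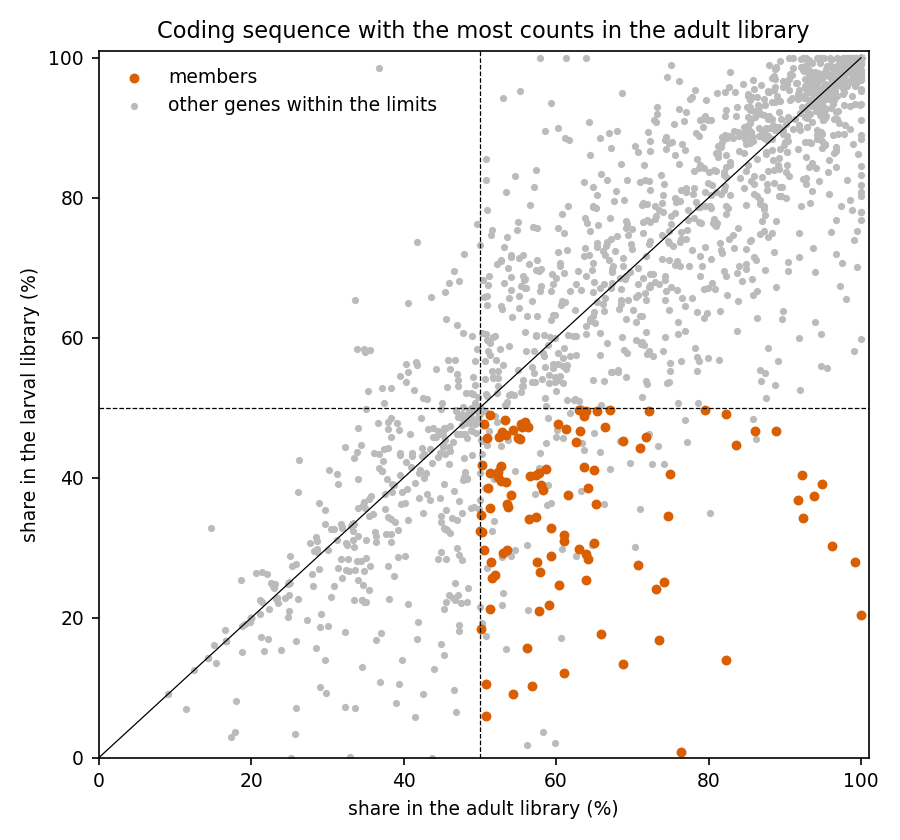
Share of the gene's estimated counts (%) held by the coding sequence with the most counts in the adult library, in the adult library (x axis) against the larval library (y axis), for the 107 members (orange) and the other genes among the 2163 within the limits (grey). Dashed lines mark 50% and the solid line equal shares. The rule places the members in the lower right field, where some other genes lie too. Most other genes lie near the line of equal shares.

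The shift was wide in a minority of members. It was 50 points or more in 12 genes, 25 to 50 points in 39, 10 to 25 points in 41 and under 10 points in 15, with a median of 23.9 points and a range of 2.30 to 79.7. The median main share was 59.0% for the adult main sequence in the adult library and 59.4% for the larval main sequence in the larval library. Both main shares reached 60% in 22 genes, 70% in 6 genes and 80% in 1 gene, LOC408332. The exact 95% interval of the adult main share lay wholly higher in the adult than in the larval library in 104 members. For the leading adult sequence this was true, in the same direction, of 27.8% of the 2163 genes, a share printed as background only, since the rule chose the members for this contrast. The 3 exceptions were LOC726108, LOC725688 and LOC726713, with shifts of 6.59, 2.84 and 2.30 points.

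LOC406147, on linkage group 15, showed the widest shift, at 79.7 points. The gene had 1185 counts in the adult library (62.2 CPM), against 1711 larval ones (109 CPM). Its 2937-base sequence held 1185 adult counts, 100% of the gene, against 348 larval counts, 20.3% (18.5 to 22.3). Its 741-base sequence had 0 adult counts, which allows a share of up to 0.253%, against 1363 larval counts, 79.7% (77.7 to 81.5). At a floor of 3 counts in the adult library, this short sequence had a larval level at least 553-fold higher. Thus the larval library held both forms and the adult library the long one only, within those limits. The short sequence is the single main sequence among the members whose RefSeq record is of a known protein and not a predicted model. On the authors' TPM, which are relative to length, the long sequence stood at 17.8 in the adult and 4.31 in the larva and the short one at 0 and 97.7. The gene's log2 fold was -2.52 by summed TPM, beside -0.81 by counts. Per length its total thus lay beyond the 4-fold limit, which the rule set on counts. The annotated span of LOC406147 overlaps another gene, so its counts may hold reads of that gene.

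LOC551846, on linkage group 14, had the clearest change on the other side, with an adult main sequence that was almost missing from the larval library. It had 1476 counts in the adult library, against 673 in the larval library. The 2061-base sequence held 76.4% (74.1 to 78.5) of adult counts, against 0.848% (0.328 to 1.93) of larval counts. In levels that was 59.2 CPM in the adult against 0.365 CPM in the larva, and the log2 fold was 7.22 (6.14 to 8.72). The 2091-base sequence, only 30 bases longer, held 16.8% (14.9 to 18.8) of adult counts, against 97.2% (95.6 to 98.3) of larval counts. A 2085-base sequence held most of the rest.

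LOC408332, on linkage group 11, was the member with both main shares above 80%. Its 5511-base sequence held 82.3% (81.0 to 83.5) of 3461 adult counts, against 14.0% (12.2 to 15.9) of 1388 larval counts. Its 5457-base sequence held 17.7% (16.5 to 19.03) of adult counts, against 86.0% (84.1 to 87.8) of larval counts. The long form stood at 149 CPM in the adult, against 12.4 CPM in the larval library, and the short form at 32.2 against 76.3 CPM. Each form was therefore present in both libraries, with the order of the 2 turned round.

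In 8 members the adult main sequence held 90% or more in the adult library, and in 1 member, LOC551846, the larval main sequence did so in the larval library. Over the 2163 genes such dominance was about as frequent in either library, at 25.2% each. In those 8 genes the adult library held nearly one form and the larval library a mixture. LOC410398 on linkage group 12 belongs to this pattern. Its 1689-base sequence held 99.3% (98.5 to 99.7) of 853 adult counts, against 27.9% (24.3 to 31.8) of 576 larval counts. Its 1881-base sequence held 0.731% (0.259 to 1.52) in the adult, against 57.0% (52.8 to 61.0) in the larval library. Of its other 2 sequences, the 1731-base one held 13.1% of larval counts and neither had adult counts.

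LOC100576482 on linkage group 6 had 682 adult and 882 larval counts. Its 3678-base sequence held 96.2% (94.5 to 97.5) in the adult, against 30.2% (27.1 to 33.3) in the larval library. The 3576-base sequence, 102 bases shorter, stood at 1.35 CPM in the adult against 39.4 CPM in the larval library, 28.6-fold higher in the larval. LOC727180, on the same linkage group, was alike in form, with 94.9% (93.8 to 95.9) for its 4155-base sequence in the adult, against 39.0% (36.9 to 41.2) in the larval library. Its 4011-base sequence was 16.1-fold higher in the larval library, at 4.69 CPM in the adult against 76.2 CPM in the larval. In both genes the long form was also somewhat higher in the adult library, 2.02-fold and 1.79-fold.

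LOC410282 on linkage group 11 is the member of this kind with the most counts. Its 3288-base sequence held 92.3% (91.5 to 93.1) of 4196 adult counts, against 34.2% (32.2 to 36.2) of 2279 larval counts, and stood at 203 against 49.8 CPM. Its 3201-base sequence stood at 16.9 CPM in the adult, against 95.5 CPM in the larval library. LOC726636 on linkage group 8 resembled it: the 3696-base sequence held 93.8% (92.5 to 94.99) in the adult, against 37.4% (33.7 to 41.1) in the larval library. Its 3546-base sequence had fewer than 1 adult count, against 388 larval counts (56.9%). Taken as up to 3 counts, this allows an adult share of up to 0.201%, and the exact 95% interval reaches 0.247%. At the floor of 3 counts the larval level of this sequence was at least 158-fold higher.

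LOC412035 and LOC413189 complete the 8. In LOC412035 on linkage group 10, the 4305-base sequence held 91.7% (89.8 to 93.3) in the adult, against 36.9% (34.9 to 38.8) in the larval library. Its level was nearly the same at TMM library sizes, at 48.7 against 55.3 CPM. What differed was the 4113-base sequence, at 0.854 CPM in the adult against 91.0 CPM in the larval library, 103-fold higher in the larval. LOC413189 on linkage group 6 differs by 15 bases between its sequences: the 942-base one held 92.3% (91.1 to 93.4) in the adult, against 40.4% (38.3 to 42.5) in the larval library.

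Of the other members with shifts over 50 points, LOC551908 and LOC410165 had a further form of weight. In LOC551908 on linkage group 15 the 5610-base sequence held 73.5% (71.6 to 75.2) of 2373 adult counts, against 16.8% (14.5 to 19.5) of 883 larval counts. Its 5169-base sequence had 0 adult counts (up to 0.126%), against 533 larval counts, 60.3% (57.0 to 63.6), so its larval level was at least 216-fold higher. A 5607-base sequence, 3 bases shorter than the adult main one, held 26.5% in the adult and 22.8% in the larva. In LOC410165 on linkage group 5, which has 5 sequences, the 1545-base one held 68.8% (65.0 to 72.5) of 619 adult counts, against 13.4% (11.2 to 15.8) of 897 larval counts, and the 1245-base one 13.3% (10.8 to 16.3) against 58.9% (55.6 to 62.1).

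**Figure D2:**
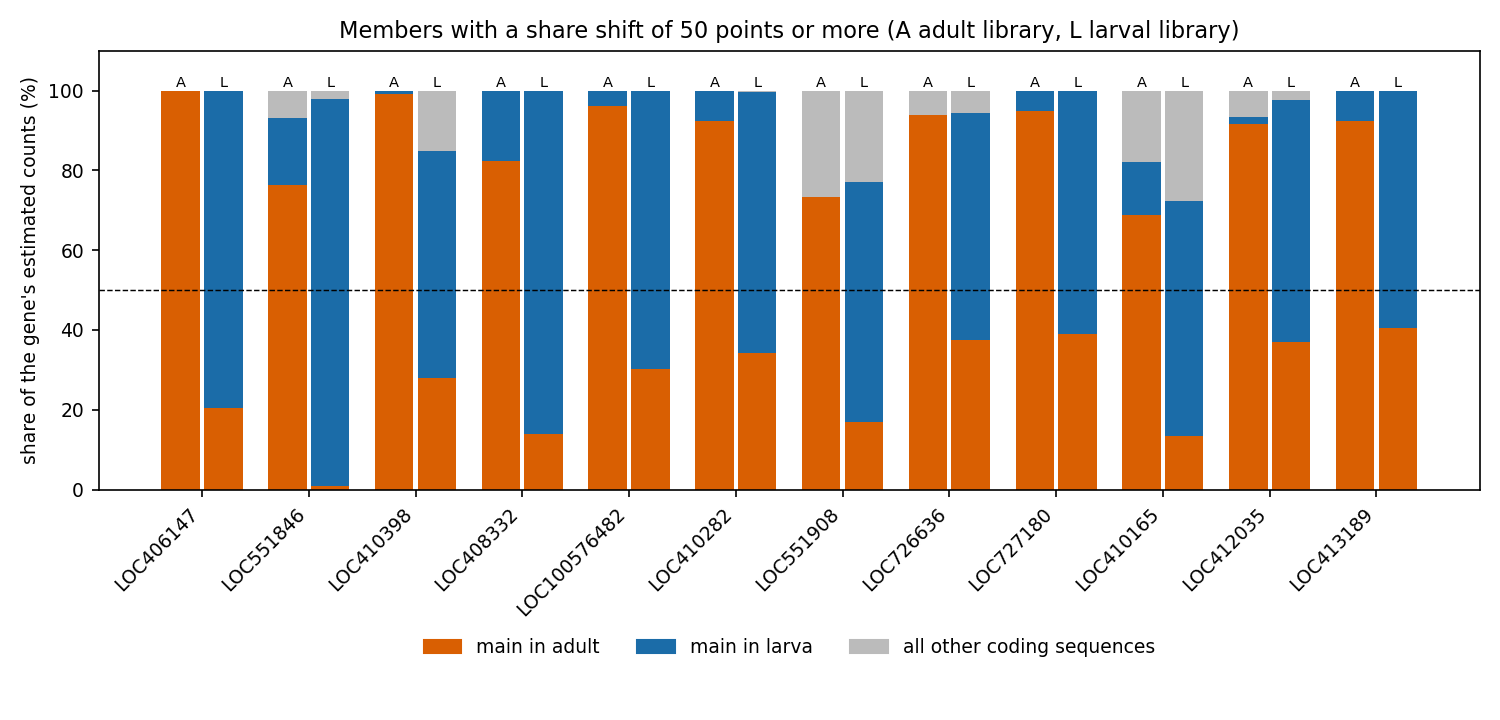
Share of each gene's estimated counts (%, y axis) held by the adult main sequence (orange), the larval main sequence (blue) and all other coding sequences (grey), for the 12 members with shifts of 50 points or more. Each gene has a bar for the adult (A) and the larval (L) library, without replicates. The orange part is between 68.8% and 100% in the adult bars and between 0.848% and 40.4% in the larval bars.

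Just below 50 points, LOC726272 and LOC413955 were close to mirror images between the libraries. In LOC726272 on linkage group 10 the 8403-base sequence held 74.1% (72.6 to 75.6) in the adult, against 25.2% (23.5 to 26.8) in the larval library. At TMM library sizes the total of this gene hardly differed, at 176 CPM in the adult against 170 CPM in the larval library (log2 fold 0.06, -0.02 to 0.13). With plain totals its log2 fold was 0.40, and by summed TPM it was 0.62. In LOC413955 on linkage group 2 the 6207-base sequence held 73.1% (72.0 to 74.2) of 6203 adult counts, against 24.2% (22.6 to 25.8) of 2714 larval counts.

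Few members were abundant. LOC412916 on linkage group 10 had the highest level, at 1067 CPM in the adult against 956 CPM in the larval library. Its 1857-base sequence held 67.1% (66.4 to 67.7) in the adult, against 49.7% (48.9 to 50.5) in the larval library. Its 1884-base sequence held 32.8% in the adult, against 50.05% (49.2 to 50.9) in the larval library, so the larval library held both forms in nearly equal parts. By the authors' TPM the 1857-base form led in both libraries, with 67.5% in the adult and 50.1% in the larva. LOC551391 on linkage group 11 followed, at 699 against 308 CPM, and its 1305-base sequence held 88.8% (88.2 to 89.3) in the adult, against 46.7% (45.3 to 48.1) in the larval library. LOC410286, LOC409379, LOC411115 and LOC551331 were the other 4 of the 6 most abundant, with shifts of 29.9, 23.7, 9.80 and 7.51 points.

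The rule has a sharp limit, and genes lie close to it on both sides. Just inside it, with no test, the lower main share was 50.001% in LOC412130, 50.05% in LOC412916 and 50.2% in LOC411828. Just outside it were LOC551889 at 49.8%, LOC412024 at 49.5% and LOC551623 at 49.3%. LOC551623 shifted by 33.8 points all the same, and LOC551889 by 1.37 points. Of the 107 members, 71 had both main shares above 50% by their exact intervals. Of the 2163 genes, 56.1% had the leading share in each library above 50% in this way, whether or not the leading sequence was the same.

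The total level of a member could move either way while its main sequence changed. At gene level the log2 fold of adult over larva ran from -1.51 to 1.75, within the limit of the rule, with a median of 0.17 beside -0.02 over the 2163 genes. By counting intervals 57 members were higher in the adult library, 38 were higher in the larval library and 12 were on neither side. With plain library totals in place of TMM every log2 fold rises by 0.35, and the numbers were 74 and 23. The same calls are not given for the 2163 genes, so these numbers are not read as a trait of the members.

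The levels of the 2 main sequences of a gene combined in several ways. In 56 members the adult main sequence was higher in the adult library and the larval main sequence higher in the larval library, each beyond counting error. In 22 members both were higher in the adult library, as in LOC412243 on linkage group 3, whose 13869-base sequence was 6.67-fold higher and whose 13884-base sequence stood at 151 CPM in the adult, against 120 CPM in the larval library. In 12 members both were higher in the larval library, and in the other 17 exactly 1 of the 2 differed beyond counting error, in the library whose main sequence it was. With plain totals the first 3 of these numbers were 53, 29 and 4. The median log2 fold was 0.88 for adult main sequences and -0.63 for larval main sequences. The median for larval main sequences did not change with sequences of 0 counts set at their bound. The rule itself places the log2 fold of the adult main sequence above that of the larval main sequence in each member. It thus favours the direction seen in the 17 genes, the lack of a reversed pattern and the order of the medians. The same patterns are not given for the other genes within the limits, so these numbers only describe the members.

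Some of these sequences differed by more than the 4-fold limit set for the whole gene. The adult main sequence was 4-fold or more higher in the adult library in 19 members, and the larval main sequence 4-fold or more higher in the larval library in 13. Both held in LOC410398, LOC410282, LOC551908 and LOC726636. Over the 6781 coding sequences of the 2163 genes with at least 10 counts, 8.67% were 4-fold higher in the adult library and 6.47% in the larval library. The rule used these counts, so nothing is read from the comparison. With plain totals the members' numbers were 27 and 12, and the same count of 4 genes had both.

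**Figure D3:**
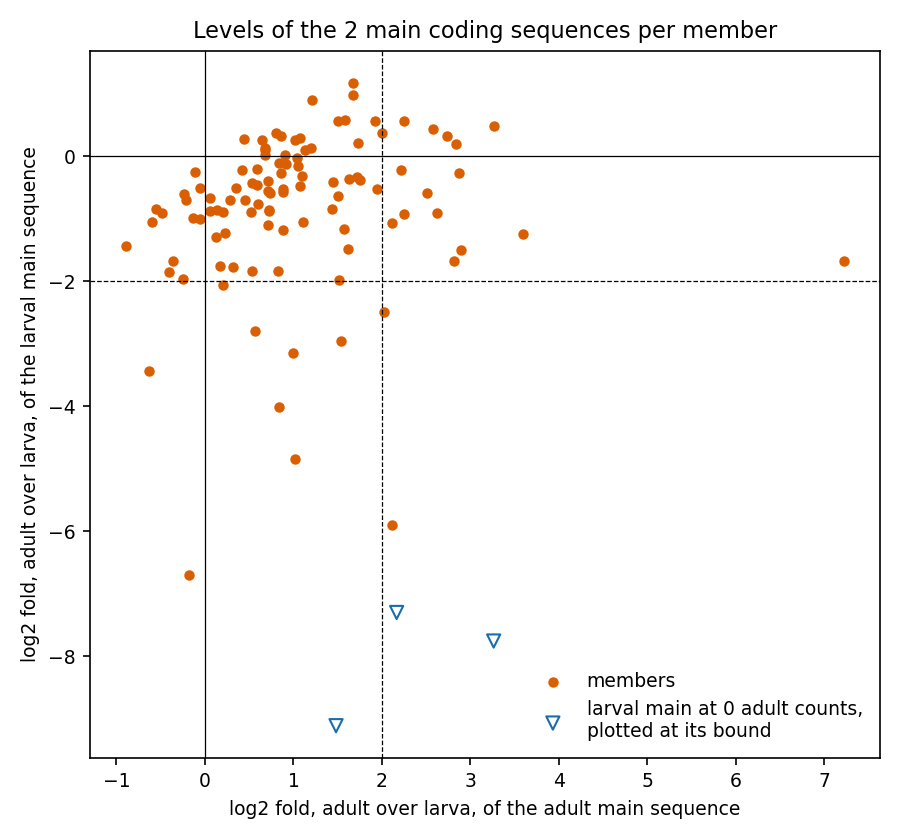
Log2 fold of adult over larva for the adult main sequence (x axis) and for the larval main sequence (y axis), 1 point per member, at TMM library sizes. Dashed lines mark 4-fold, and triangles are the 3 larval main sequences with under 1 adult count, plotted at the bound set by 3 counts. The point farthest right is LOC551846, and the lowest is LOC406147.

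The annotation gives the number and lengths of the sequences. The rule used the first, in asking for at least 2, and did not use the lengths. Members had a median of 2 coding sequences, beside 3 over the 2163 genes, and 58 of the 107 had exactly 2, 54.2% beside 44.8%. Of 2 sequences 1 always holds 50% or more, so the rule favours such genes. In the 49 members with 3 or more, the sequences other than the 2 main ones held a median of 1.12% of adult and 2.10% of larval counts. Their share was at most 30.9% in the adult and 34.9% in the larva. LOC410161, on linkage group 3, has the most sequences, 16, and its 6561-base form held 63.9% in the adult, against 25.4% in the larval library.

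The adult main sequence was the longer one in 74 members and the larval main sequence in 31, and in 2 both had the same length. In the other genes of the 2163, the longer of the 2 largest sequences had the higher share in the adult library in 54.4% of 1466 with unequal lengths, beside 70.5% of 105 members. Of these 1466, 119 had equal shares in both libraries and are counted as not higher in the adult library, beside 0 members. Among the 91 members of unequal lengths whose longer sequence shifted by 10 points or more, it had the higher share in the adult library in 74.7%. In the other genes of the 2163 with such a shift between their 2 largest sequences, it was 68.5% of 409. With equal shares counted this way, the members lay farther from the other genes over all shifts than over wide shifts. Neither difference was tested. The gap between coding length and kallisto's effective length, which reflects the length of the sequenced fragments, was 265 bases in the adult and 282 bases in the larva. The part of this gap in the direction was not tested.

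The lengths of the 2 main sequences differed by a median of 144 bases, or 5.75% of the longer one. The difference was 1 to 30 bases in 24 members, 31 to 300 bases in 50 and more than 300 bases in 31. In the other genes of the 2163, the 2 largest sequences were equal in length in 28.7%, beside 1.87% of members, and over 300 bases apart in 11.1%, beside 29.0% of members. Sequences of equal length and letters could not be told apart by any read, which bears on the first of these shares. The median shift was 21.1 points for differences of 30 bases or fewer, 26.3 points for 31 to 300 bases and 22.3 points for more than 300 bases. The medians of the 3 classes thus lay close together beside the range within each.

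Small differences include some of the wide shifts. LOC412220 on linkage group 1, with 1533 against 1521 bases, had 50.8% for the longer form in the adult, against 10.5% in the larval library. LOC725352 on linkage group 11 has short main sequences of 342 and 330 bases, and the longer held 83.6% in the adult, against 44.7% in the larval library. LOC409282 on linkage group 1 has 2 sequences of 3153 bases each, and the adult main one held 74.6% in the adult, against 34.6% in the larval library. LOC552081 is the other member with equal lengths, and its shift was 7.76 points.

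**Figure D4:**
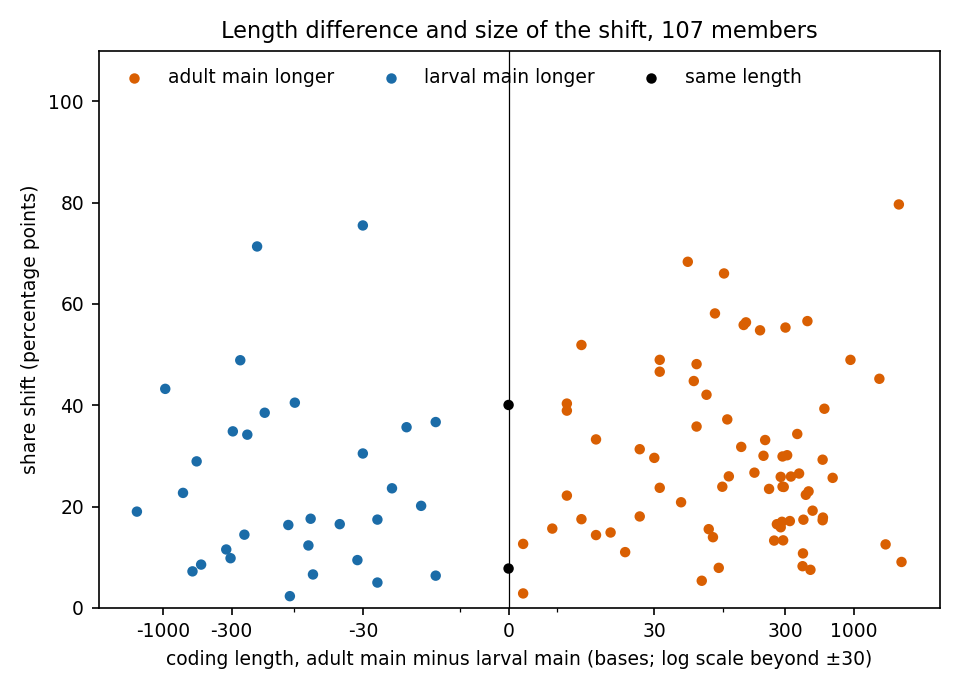
Coding length of the adult main sequence minus that of the larval main sequence (bases, x axis, logarithmic beyond 30 bases) against the share shift (percentage points, y axis) for the 107 members. Orange points have the longer sequence as the adult main one (74 genes), blue points as the larval main one (31 genes), and black points have equal lengths (2 genes). Shifts of every size occur at small and at large length differences.

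Large length differences call for shares per length, because a longer sequence yields more fragments per molecule. By the authors' TPM, 88 members still had 50% or more of the gene in each library in the same sequences. Of the other 19, 18 had the same leading sequence in both libraries, and LOC410322 kept the change with a share of 49.5% in the adult library. These 19 had a median length ratio of 1.16 between their main sequences, beside 1.04 in the other members. In LOC724808 on linkage group 2, with main sequences of 552 and 2136 bases, the short form held 58.0% of adult counts, against 39.0% of larval counts. Per length it led in both libraries, with 89.98% of the gene's TPM in the adult and 81.4% in the larva. LOC408783, with 2382 and 642 bases, was alike, and its short form held 78.8% of TPM in the adult and 86.5% in the larva. LOC412935, LOC725146 and LOC408942, the other members with length ratios among the highest 6, likewise kept one leading form by TPM, while LOC406147 kept its change.

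How many reads tell 2 sequences of a gene apart sets how firm a share is. kallisto assigns each fragment to all sequences it matches and divides shared fragments by the fragments that match one only. Of the 107 members, 2 had whole counts for both main sequences in both libraries at a tolerance of 0.001, LOC412935 and LOC551415. In the other members at least 1 of these counts was a divided estimate. Over the 2163 genes, the counts of the leading sequences were whole in this way in 217. Where 1 sequence led in both libraries, only that one had to be whole, so the numbers are not alike. If 2 main sequences differ at 1 place only, a fragment must reach that place to tell them apart. This would hold for a median of 20.7% of adult and 21.1% of larval fragments, and for as few as 2.02% in the adult library. The printed intervals count every fragment as informative, so they are too narrow. With counts scaled down to that fraction, a choice made after seeing the data, 87 members had the interval wholly higher in the adult library, beside 16.4% of the 2163 genes, and 44 had both main shares above 50%, beside 50.7% of the 2163 genes. The rule used these counts, so nothing is read from either comparison. Where 1 sequence led in both libraries, the scaling took a length difference of 0 bases.

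The members lie on all 16 linkage groups. Linkage group 11 held 16 of them, 7.21% of its 222 genes within the limits, and linkage group 4 held 8, 7.02% of its 114. Linkage groups 13 and 14 held 1 and 2, or 1.89% and 1.82%. Over all 2163 genes the share was 4.95%, and differences between linkage groups were not tested. There were 2 pairs of members that are next neighbours among protein-coding genes. One is LOC410286 and LOC408332 on linkage group 11, whose annotated spans overlap, with LOC410282 removed from them by 6 genes. The other is LOC100578266 and LOC413074 on linkage group 6. Spans that overlap another annotated gene were found in 42 members, 39.3%, beside 40.6% of the 2163 genes, and the counting is not stated to use strand. Among the 14 widest shifts these were LOC406147, LOC551846, LOC410398, LOC408332 and LOC413189, whose counts may hold reads of the other gene.

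Among genes with a symbol within the same limits, 1 of 64 met the rule, 1.56%. It was Fstl5, which encodes a follistatin-like protein, and its 2697-base sequence held 82.5% in the adult, against 36.7% in the larval library. Of 25 symbols listed for splicing regulation, some of them alternative names of the same gene, 5 were in the gene table. Fem stood at 212 CPM in the adult against 89.1 CPM in the larval library (log2 fold 1.25), tra2 at 113 against 186 CPM (-0.72) and Snf at 33.3 against 87.2 CPM (-1.39). Fem sets female development through splicing, tra2 is its splicing partner and Snf is a protein of the splicing machinery. Csd, a related gene that shares reads with Fem, had a log2 fold of 0.49, and Dsx had 25 adult and 9 larval counts. With plain totals each log2 fold is higher by 0.35, and all 5 keep their sign.

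The libraries held 16880784 (adult) and 17657463 (larva) counts. PPO, the prophenoloxidase made by hemocytes and the marker with a symbol, was abundant in both, at 1.58% of adult and 2.48% of larval counts. Markers of other tissues were lower. The 7 fat body genes held 0.0214% of adult and 0.610% of larval counts, the 4 muscle genes found 0.00285% and 0.00347%, the 2 neuronal genes 0.124% and 0.0223%, and the 5 midgut or gland genes 0.0107% and 0.0153%. Within these lists the genes did not all move one way. Of the fat body genes, Vg (vitellogenin) had 2280 adult and 5 larval counts, while the other 6 were higher in the larval library, as in Hex110 with 184 adult and 62612 larval counts. Of the neuronal genes, Syt1 stood at 1094 CPM in the adult against 244 CPM in the larval library, and nAChRa1 had 48 adult and 110 larval counts. Of the midgut or gland genes, Mrjp7 had 705 adult and 13 larval counts, Mrjp1 had 2 in each library, and Fibroin1, Fibroin2 and Hbg3 were higher in the larval library. None of the markers found was at 0 in either library. In bulk RNA, fewer cells of a type and less RNA per cell cannot be told apart, and a share shift can likewise stand for other cells or for other transcripts in the same cells. The part of other cell types in the shifts was not tested.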

How the data were processed

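Estimated counts and TPM per coding sequence were deposited by the authors for 1 adult and 1 larval library. The submitters' processing notes name kallisto; no version, index or build is given in the sources used here. Reads were paired, 150 bases per end, from a protocol that selects polyadenylated RNA, per the labels' protocols. The authors' TPM are relative to effective length and depth. Coding sequences (23471, all matched) were joined to RefSeq genes of Amel_HAv3.1 through protein identifiers. TMM factors of 1.13 (adult) and 0.886 (larva) came from 8798 genes with at least 10 counts (edgeR 4.0.16, R 4.3.3). Log2 folds of adult over larva used a prior of 0.5 counts on each side. Intervals are exact 95% (Clopper-Pearson) on rounded counts, for folds on the split of counts between the libraries. They cover counting error only, and PCR copies are not independent molecules. A count of 0 was taken as up to 3 counts, or 0.157 CPM (adult) and 0.192 CPM (larva). All 107 members enter each count. Genes named are the 14 widest shifts, the 6 highest levels, the 6 highest length ratios and 3 on each side of the limit of 50%. Further genes were named after their values were seen: LOC412243, LOC412220, LOC725352, LOC409282, LOC552081, LOC410161, LOC410322, LOC551415, LOC726108, LOC725688, LOC726713, LOC100578266, LOC413074 and Fstl5. The members and lists were chosen with earlier results of these data known. The rule was tested on simulated data. Python 3.11.15 with numpy 2.4.6, scipy 1.17.1, pandas 2.3.3 and matplotlib 3.10.9 did the rest.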

Additional observations from a re-analysis of the deposited data

How the results depend on the processing

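The number of members depends mostly on the share asked of the main sequence. Against 107 of 2163 genes within the limits as reported, it was 69 of 1364 with a minimum of 1000 counts. Of the same 2163 genes, it was 22 with a main share of 60% and 238 with no minimum share. It was 71 where exact intervals had to lie above 50% in both libraries. With counts scaled to the fragments that can tell the sequences apart, an alternative added after seeing the data, it was 44. The number stayed within 1.5 times under the 8 other alternatives, while the genes within the limits changed in some of them. It was 146 of 3017 with a minimum of 100 counts and 143 of 1749 with same-length sequences pooled (105 shared). With shares from the authors' TPM it was 99 of 2163 (88 of them members here). With counts per coding length it was 96 of 2163 (89 shared). It was 110 of 2226 with no limit on the gene level and 89 of 1744 under 2-fold. With plain totals it was 106 of 2144, and with symbols included 108 of 2227. The median shift of 23.9 points was 23.7 under TPM, per coding length and pooled. The median gene log2 fold of 0.17 became 0.52 with plain totals and 0.70 with the sum of the authors' TPM, and 22 members changed the sign of their gene log2 fold under TPM and 14 under plain totals. Among 27 named members, 2 share shifts left their counting limits under TPM and none under pooling. The gene log2 folds of all 27 left their counting intervals under plain totals, and likewise under summed TPM. No paired analysis was possible because each stage has 1 library, and no replicate could be left out for the same reason.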
